A study of Mus musculus with 2 samples.

Results

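Bone is resorbed by osteoclasts, multinucleated cells that form from blood precursors of the monocyte and macrophage lineage. Stromal and bone cells steer this step through a small set of secreted and membrane-bound proteins. RANKL, encoded by Tnfsf11, binds its receptor RANK, encoded by Tnfrsf11a, on the precursors and drives their differentiation, and OPG, encoded by Tnfrsf11b, is a soluble decoy receptor that captures RANKL before it reaches RANK. CSF1 (M-CSF, encoded by Csf1) and IL-34 (encoded by Il34) are different proteins that share a receptor, CSF1R (encoded by Csf1r), through which macrophages and osteoclast precursors survive and proliferate.

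The expression of these 6 genes was examined among 32288 features in scRNA-Seq data of mouse periosteum, the fibrous layer that covers bone. The genes were picked by their symbols, and all 6 were found in the files. The data were 2 libraries, replicates 1 and 2 of a single group, made from periosteal cells of the femur and tibia of C57BL6 mice labelled WT and 4 weeks old. No transgene, allele, or treatment is named for either library, and the number of mice in each is not given. Cells were released with collagenase and sorted as negative for CD45, CD31, and Ter119, a gate meant to remove blood and endothelial cells. With a single group, the comparisons are between cell classes within the libraries, and they ask which stromal cells make the ligands and OPG and which blood cells carry the receptors.

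The libraries departed from their labels in 2 ways. Cells of hematopoietic clusters made up 92.9% of the 6276 cells kept from library 1 and 61.2% of the 2893 kept from library 2, in spite of the CD45 and Ter119 gate, so that 448 and 1123 stromal cells remained. Transcripts of the reporter EGFP numbered 0 UMIs in library 1 and 6837 UMIs in 170 cells of library 2, although both libraries are labelled WT, and tdTomato had 1482 and 4627 UMIs. The median kept cell had 8164 and 6279 UMIs (unique molecular identifiers, each standing for a captured transcript), and 7 of the kept barcodes occurred in both libraries. Cells were clustered without the 6 genes and 75 other genes of their pathways, and clusters were named by marker genes with "-like" added. Lepr+ stromal-like cells (85 cells in library 1 and 36 in library 2) are named after a marrow stromal cell that surrounds blood vessels and makes CXCL12. The other stromal classes were osteoblast-like (130 and 246), periosteal fibroblast-like (32 and 322), chondrocyte-like (27 and 120), hypertrophic chondrocyte-like (27 and 75), tenocyte-like (3 and 92), smooth muscle-like (4 and 20), and skeletal muscle-like cells (71 and 63). Stromal cluster 3 (69 and 74 cells, led by Col10a1, Mgp, and Rbp4) and stromal cluster 10 (0 and 75 cells, led by Msmp, Prg4, and Cytl1) had no name. These clusters, and the tenocyte-like and smooth muscle-like classes with their few cells in library 1, were part of no edgeR test. Among the blood cells, B cell-like (2655 and 1335), erythroid-like (1272 and 126), neutrophil-like (1041 and 141), monocyte/macrophage-like (245 and 74), and T/NK cell-like cells (118 and 40) were named. A further 497 and 54 hematopoietic cells had no name, with medians of 54780 and 51860 UMIs. They are part of the ratios of stromal to hematopoietic cells but of no edgeR test. The T/NK cell-like class was mixed. All 9 T/NK cell-like markers were found in it and summed to 1090 and 2504 CPM (CPM, the UMIs of a gene per 1000000 UMIs of its class in that library), but the 5 basophil/mast cell-like markers summed to more, 3585 and 5446 CPM, so that its values cannot be assigned to T or NK cells.

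The Lepr+ stromal-like class, on which several results rest, differed between the libraries in its own markers. All 7 markers of the class were found in both libraries, with a summed level of 11820 CPM in library 1 and 2101 CPM in library 2. Adipoq, which encodes the hormone adiponectin, was at 2476 and 347 CPM, and Lepr was at 667 and 321 CPM. In library 2 the class's own markers summed to less than those of 4 other stromal lists, of which the 8 periosteal fibroblast-like markers reached 558 CPM in library 1 and 7411 CPM in library 2, the 4 hypertrophic chondrocyte-like markers 1656 and 7023 CPM, the 6 osteogenic progenitor-like markers 1311 and 4166 CPM, and the 7 osteoblast-like markers 1442 and 2867 CPM. Bglap, which encodes osteocalcin, was at 37.5 and 414 CPM in the class against 17900 and 10440 CPM in osteoblast-like cells. Hematopoietic markers were found in the class as well, mostly in library 1, where all 7 erythroid-like markers summed to 14670 CPM and all 10 neutrophil-like markers to 8909 CPM, against 295 and 82.8 CPM in library 2. Ptprc, which encodes CD45, was at 15.6 and 0 CPM. The part of these differences in the results was not tested.

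Tnfsf11 (ENSMUSG00000022015) lies on the minus strand at chr14:78277445-78308043 in the GENCODE M21 annotation of GRCm38, and Csf1 (ENSMUSG00000014599) on the minus strand at chr3:107741048-107760469. Both genes were higher in Lepr+ stromal-like cells than in the mean of the other stromal classes, and their promoters are shown for that reason. Each sequence is the 250 bases before the start site in RefSeq, read 5′ to 3′ on the strand of the gene in GRCm38.p6, at chr14:78308044-78308293 for Tnfsf11 and at chr3:107760470-107760719 for Csf1.
Tnfsf11: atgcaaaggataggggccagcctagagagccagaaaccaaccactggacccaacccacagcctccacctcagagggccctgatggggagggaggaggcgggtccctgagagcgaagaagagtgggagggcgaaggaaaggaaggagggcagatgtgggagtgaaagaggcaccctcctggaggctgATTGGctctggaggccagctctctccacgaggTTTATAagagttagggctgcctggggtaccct
Csf1: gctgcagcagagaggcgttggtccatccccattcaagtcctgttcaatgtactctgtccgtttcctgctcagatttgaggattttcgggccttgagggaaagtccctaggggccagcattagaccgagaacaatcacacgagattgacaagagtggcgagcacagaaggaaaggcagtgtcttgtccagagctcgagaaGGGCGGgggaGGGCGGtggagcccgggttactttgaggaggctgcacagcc
The capitals mark matches to motifs searched on both strands. The Tnfsf11 promoter held 1 match to TATAAA (the TATA box) and 1 match to CCAAT (the CCAAT box), which 12.4% and 33.9% of 32851 mouse promoters of this length also held. The Csf1 promoter held 2 matches to GGGCGG (the GC box), found in 32.7% of promoters, and no match to TATAAA or CCAAT. Neither window had a match to TGTGGT (a RUNX motif, in 14.1% of promoters) or to an EBF motif (TCCC and GGGA with any 2 bases between them, in 0.779%). These matches describe the letters in the windows and are not binding sites. The promoters of the 2 genes had none of the 5 searched motifs in common.

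Tnfsf11 was detected mainly in 2 stromal classes. Lepr+ stromal-like cells had 90 Tnfsf11 UMIs in library 1, or 141 CPM (95% Poisson interval 113 to 173), and 27 UMIs in library 2, or 140 CPM (92.1 to 203). Hypertrophic chondrocyte-like cells had 19 UMIs in library 1, or 46.8 CPM (28.2 to 73.1), and 37 UMIs in library 2, or 29.8 CPM (21.0 to 41.1). Both libraries gave the same order, and the intervals of these 2 classes lay apart from each other and above that of osteoblast-like cells, which came next. The Lepr+ stromal-like level was 3.005 times (1.82 to 5.22) the hypertrophic chondrocyte-like level in library 1 and 4.69 times (2.74 to 7.91) in library 2. Intervals of single libraries cover counting error only.

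Osteoblast-like cells had 15 and 11 Tnfsf11 UMIs, or 5.25 and 2.84 CPM, so that the Lepr+ stromal-like level was 26.8 times (15.4 to 49.8) and 49.2 times (23.6 to 110) theirs. Among the 3 osteoblast-like clusters, stromal cluster 6 (led by Dmp1, Ibsp, and Serpine2) had 30.8 CPM in library 1 (15.9 to 53.9) and 7.62 CPM in library 2 (3.07 to 15.7), and stromal cluster 1 (led by Bglap, Bglap2, and Ifitm5) had 0 and 1.08 CPM. Cluster 6 also had the most cells with Mki67, a proliferation marker (24.4%, against 9.28% in cluster 1). Periosteal fibroblast-like cells had 2 and 1 Tnfsf11 UMIs and chondrocyte-like cells 0 and 3. Stromal cluster 3, which shared the leading gene Col10a1 with hypertrophic chondrocyte-like cells, had Tnfsf11 at only 1.96 and 0 CPM. Tenocyte-like, smooth muscle-like, and skeletal muscle-like cells had none, which allows up to 3.68, 23.4, and 11.4 CPM in library 2 and up to 66.8, 126, and 14.9 CPM in library 1. From the third place on, the ranges of Tnfsf11 levels over the 2 libraries overlapped between neighbouring classes.

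**Figure D1:**
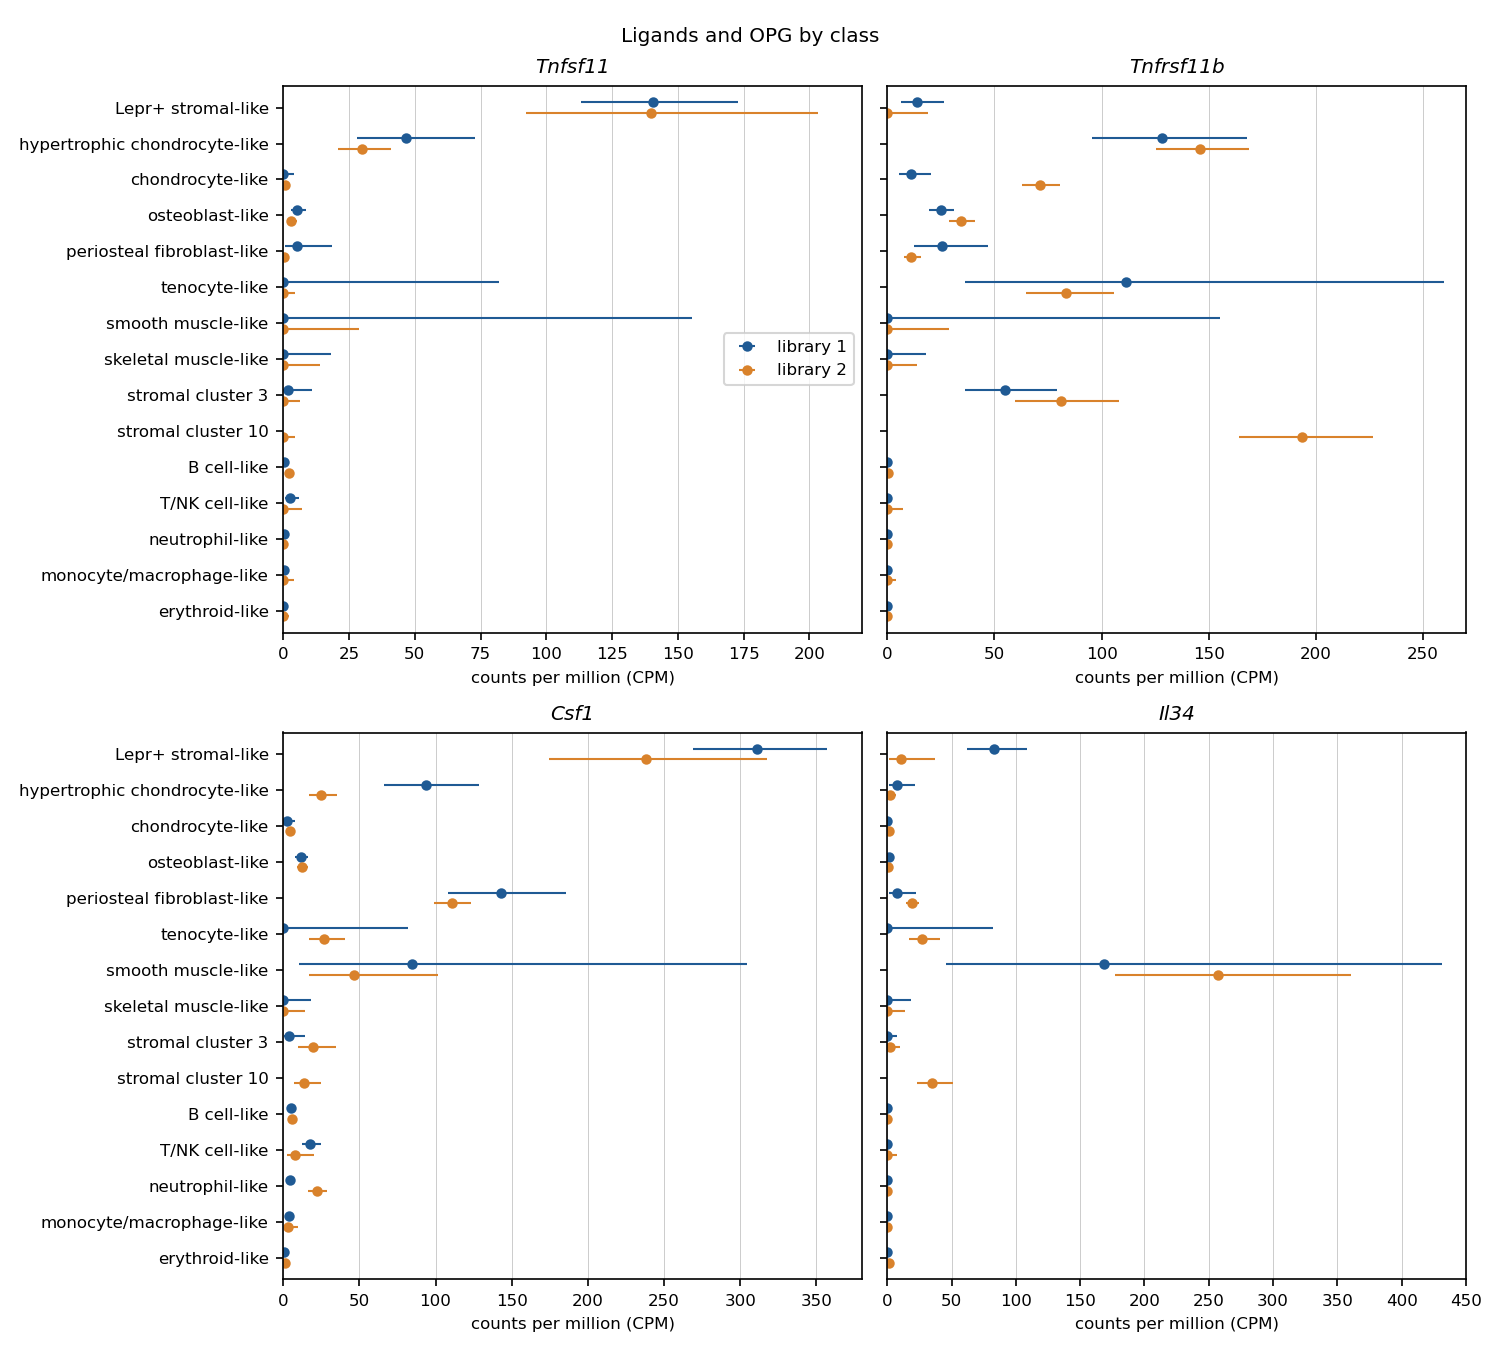
Levels of Tnfsf11 (RANKL), Tnfrsf11b (OPG), Csf1, and Il34 in CPM (horizontal axes, linear) in 10 stromal and 5 hematopoietic classes or clusters (vertical axis). Points are single libraries (blue for library 1, orange for library 2) and bars are 95% Poisson intervals, which are wide for classes of few cells such as the 4 smooth muscle-like cells of library 1. Tnfsf11 was at 141 and 140 CPM in Lepr+ stromal-like cells and below 50 CPM elsewhere, and Il34 was at 168 and 257 CPM in smooth muscle-like cells.

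The share of cells with Tnfsf11 gave the same 2 classes. At least 1 UMI was found in 44 of 85 Lepr+ stromal-like cells of library 1 (51.8%, exact binomial interval 40.7 to 62.7) and 8 of 36 of library 2 (22.2%, 10.1 to 39.2). In hypertrophic chondrocyte-like cells the share was 18.5% and 17.3%. B cell-like cells had Tnfsf11 in 0.301% and 0.674% and erythroid-like cells in 0.0786% and 0 of 126 cells, the latter allowing up to 2.38%. Lepr+ stromal-like cells were not the deepest class, with medians of 7152 and 3292 UMIs, against 3837 and 4002 in B cell-like cells and 16440 and 17640 in hypertrophic chondrocyte-like cells. Expected at 1000 UMIs per cell, the shares were 11.5% and 9.40% in Lepr+ stromal-like cells (1 shallower cell left out in library 2), 3.59% and 1.76% in hypertrophic chondrocyte-like cells (1 and 3 left out), and 0.0181% and 0.142% in B cell-like cells (8 left out in each).

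The UMIs were spread unevenly over the cells. A single hypertrophic chondrocyte-like cell of library 1 held 13 of the 19 Tnfsf11 UMIs of its class, and a single cell of library 2 held 11 of 37. In Lepr+ stromal-like cells, the most in a single cell were 7 and 9 UMIs. Because the classes differed in size, Lepr+ stromal-like cells held 60.4% of the 149 Tnfsf11 UMIs of library 1, whereas in library 2 the largest part of 98 UMIs (37.8%) was in hypertrophic chondrocyte-like cells and 27.6% in Lepr+ stromal-like cells. Among blood cells of library 2, 2 barcodes of hematopoietic cluster 7 (B cell-like, led by Vpreb1, Igll1, and Dntt) held 6 and 5 Tnfsf11 UMIs, with 0 UMIs of Cxcl12 and of Mmp13. In library 1, the most were 3 and 2 Tnfsf11 UMIs, in 2 barcodes of hematopoietic cluster 4, which had no name. These 2 also held 93 and 82 UMIs of Cxcl12 and 9 and 7 of Mmp13. Whether any of these barcodes holds more than 1 cell was not tested.

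Across both libraries, 3 of the 4 members tested were higher in Lepr+ stromal-like cells and none was lower, in a comparison that called 8.69% of 10074 genes higher and 2.81% lower. Tnfsf11 was higher by 4.96 on the log2 scale (standard error 0.56, adjusted p = 8.9e-05, quasi-likelihood test of edgeR with p adjusted by the Benjamini-Hochberg method, n = 2 libraries per class). Csf1 was higher by 3.13 (standard error 0.36, adjusted p = 0.00028, same edgeR test). Il34 was higher by 3.75 (standard error 0.62, adjusted p = 0.0019, same edgeR test), a value that was 1.61 without library 1 and 5.14 without library 2. In library 2, its level in the class (10.4 CPM, 2 UMIs in a single cell) was below that of periosteal fibroblast-like cells (19.0 CPM). Il34 passed the filter on low counts only through this fibroblast-like sum and the Lepr+ stromal-like sum of library 1 (82.8 CPM). Its high level in Lepr+ stromal-like cells thus decided that it was tested, so its call adds nothing to the count. Tnfrsf11b had a log2 fold change of -2.54 that did not pass the threshold of 0.05 (standard error 0.86, adjusted p = 0.087, same edgeR test). It passed in DESeq2 (adjusted p = 0.034) and without the filter on low counts in edgeR (adjusted p = 0.031). Tnfrsf11a and Csf1r were too low in stromal cells to be tested. The number of mice per library is not given, so the p-values measure only the spread between these 2 libraries.

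The Lepr+ stromal-like class depended on the clustering. At a resolution of 1.2 it held 58 and 9 cells, and without integration of the libraries it held 5 cells in library 2, below the minimum of 10, so neither setting gave this test. With classes of at least 5 cells, an alternative chosen after seeing the data, Tnfsf11 was higher by 4.79 at resolution 1.2 and 5.43 without integration (adjusted p = 7.8e-05 and 7.5e-06, same edgeR test). Csf1 was higher by 2.98 and 2.69 (adjusted p = 0.00050 and 0.00073, edgeR) and Il34 by 4.47 and 4.07 (adjusted p = 0.00054 and 0.00057, edgeR), whereas Tnfrsf11b, at -1.57 and -2.30, did not pass (adjusted p = 0.25 and 0.10, edgeR). The median of all genes was -0.06 and -0.32 in these fits. At 1.2, a cluster of 52 and 78 cells took the osteogenic progenitor-like name that no cluster had at 0.8, drawing 33 and 27 cells from the Lepr+ stromal-like and 19 and 51 from the osteoblast-like class. Tnfsf11 was at 70.6 and 25.1 CPM in this cluster and at 150 and 261 CPM in the 58 and 9 cells named Lepr+ stromal-like at that setting. Against the mean of the other stromal classes, the osteogenic progenitor-like cells were higher in Tnfsf11 by 4.05 (standard error 0.62, adjusted p = 0.0011, same edgeR test) and in Csf1 by 2.19 (standard error 0.44, adjusted p = 0.012, same edgeR test). With those Lepr+ stromal-like cells also in the fit, an alternative chosen after seeing the data, the values were 2.90 (adjusted p = 0.0066, edgeR) for Tnfsf11 and 1.49 (adjusted p = 0.073, edgeR) for Csf1.

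Within the Lepr+ stromal-like class at 0.8, Tnfsf11 and Csf1 were found with and without Adipoq, a division chosen after the values were seen and given without a test. In library 1, the 68 cells with Adipoq had 142 CPM of Tnfsf11 (111 to 179) and the 17 cells without it had 136 CPM (81.8 to 212). In library 2, the 6 cells with Adipoq had 331 CPM (159 to 608, 10 UMIs in 2 of the cells) and the 30 cells without it had 104 CPM (60.8 to 167). Cells without Adipoq carried Mmp13, which encodes a collagenase of hypertrophic cartilage and osteoblasts, at 3625 and 8131 CPM, against 1085 and 826 CPM in cells with Adipoq. Il34 fell almost wholly on the cells with Adipoq, which held 52 of its 53 UMIs in library 1 and 2 of 2 in library 2. The libraries differed in the makeup of the class, with most cells carrying Adipoq in library 1 and most lacking it in library 2.

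**Figure D2:**
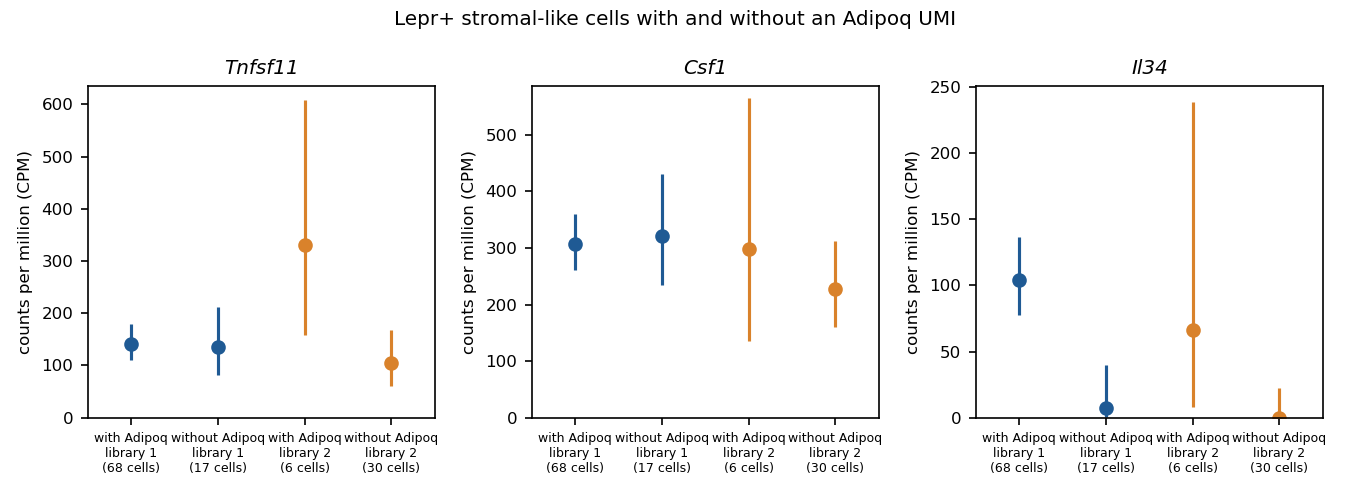
Levels of Tnfsf11, Csf1, and Il34 in CPM (vertical axes, each from 0) in Lepr+ stromal-like cells with and without a UMI of Adipoq, for library 1 (blue) and library 2 (orange), with 95% Poisson intervals as bars and the number of cells under each point. Tnfsf11 was at 136 and 104 CPM in the 17 and 30 cells without Adipoq, and Il34 at 7.15 and 0 CPM there.

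Tnfrsf11b (ENSMUSG00000063727, minus strand, chr15:54250619-54278484), the gene of the decoy receptor, had another distribution from its ligand. Hypertrophic chondrocyte-like cells had the highest level among named classes, with 52 UMIs in library 1, or 128 CPM (95.6 to 168), and 181 UMIs in library 2, or 146 CPM (125 to 169). Stromal cluster 10, found only in library 2, had 193 CPM (164 to 227), and its leading gene Prg4 encodes lubricin, a joint lubricant. Tenocyte-like cells had 111 CPM (36.1 to 260, from 5 UMIs in 3 cells) and 83.4 CPM (64.8 to 106). Chondrocyte-like cells differed between libraries, with 11.0 CPM (5.27 to 20.2) in library 1 but 71.4 CPM (63.0 to 80.7) in library 2.

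In the order of the classes found in both libraries, the ranges between the 2 library levels of hypertrophic chondrocyte-like cells, tenocyte-like cells, and stromal cluster 3 (54.8 and 81.2 CPM) did not overlap, and those of the following neighbours did. The Poisson interval of tenocyte-like cells covered the levels of both other classes in library 1 (36.1 to 260). In library 2 it covered that of stromal cluster 3 (64.8 to 106), so counting error can change this order. Osteoblast-like, periosteal fibroblast-like, and Lepr+ stromal-like cells had lower Tnfrsf11b levels than hypertrophic chondrocyte-like cells, tenocyte-like cells, and stromal cluster 3. Osteoblast-like cells had 24.8 and 34.6 CPM, and the hypertrophic chondrocyte-like level was 5.16 times (3.53 to 7.48) and 4.22 times (3.36 to 5.31) theirs. Periosteal fibroblast-like cells had 25.6 and 11.2 CPM and Lepr+ stromal-like cells 14.1 and 0 CPM, the latter allowing up to 15.5 CPM. Blood cells of all classes together held 2 and 3 Tnfrsf11b UMIs. As with its ligand, the UMIs were uneven, and single hypertrophic chondrocyte-like cells held 31 of 52 and 51 of 181 of them. In library 2, where 34 of the 75 hypertrophic chondrocyte-like cells had EGFP, Tnfrsf11b was at 186 CPM in those with EGFP and 68.4 CPM in the 41 without it, and Tnfsf11 at 23.3 and 42.5 CPM. The part of the reporter in these levels was not tested.

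The share of Tnfsf11 among the UMIs of Tnfsf11 and Tnfrsf11b separated the stromal classes. It compares classes with each other and does not say which of the 2 transcripts is the more abundant in a cell, since 3′ capture can differ between genes. In Lepr+ stromal-like cells, Tnfsf11 made up 90.9% of 99 UMIs in library 1 (83.4 to 95.8) and 100% of 27 UMIs in library 2 (87.2 to 100). In hypertrophic chondrocyte-like cells it made up 26.8% (16.9 to 38.6) and 17.0% (12.2 to 22.6). Osteoblast-like cells had 17.4% and 7.59%, and chondrocyte-like cells had 0% of 10 UMIs and 1.15% of 260. All 154 such UMIs of stromal cluster 10 and all 68 of the tenocyte-like cells of library 2 were Tnfrsf11b. In the clustering used for these values, the Lepr+ stromal-like intervals did not overlap those of the other stromal classes with such UMIs in either library. At resolution 1.2, osteogenic progenitor-like cells had a share of 84.2% in library 1 (68.75 to 93.98) and 42.3% in library 2 (28.73 to 56.8). Lepr+ stromal-like cells had 88% (78.44 to 94.36) and 100% (69.15 to 100) at that setting. The intervals of these classes overlapped in library 1 but not in library 2.

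Both transcripts were seen in the same cell in part. Of the hypertrophic chondrocyte-like cells with Tnfsf11, 0 of 5 in library 1 and 8 of 13 in library 2 also had Tnfrsf11b. Of the Lepr+ stromal-like cells with Tnfsf11, 5 of 44 and 0 of 8 had Tnfrsf11b, and 37 of 44 and 5 of 8 had Csf1. No doublets were removed, and a barcode that holds 2 cells cannot be told apart from a cell with both transcripts.

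**Figure D3:**
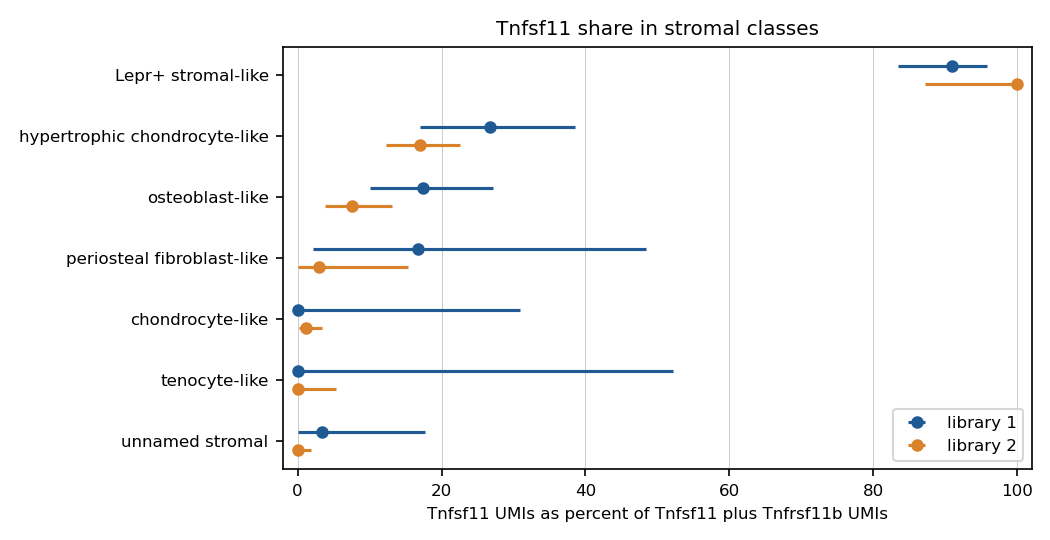
UMIs of Tnfsf11 as a percent of the UMIs of Tnfsf11 plus Tnfrsf11b (horizontal axis) in 7 stromal classes (vertical axis), with 95% exact binomial intervals as bars, for library 1 (blue) and library 2 (orange). The Lepr+ stromal-like points lie at 90.9% and 100% and all others at or below 26.8%.

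Csf1 was found in more classes than Tnfsf11. Lepr+ stromal-like cells had 199 Csf1 UMIs in library 1, or 311 CPM (269 to 357), and 46 UMIs in library 2, or 238 CPM (174 to 318). Periosteal fibroblast-like cells followed with 56 UMIs, or 143 CPM (108 to 186), and 327 UMIs, or 111 CPM (99.1 to 124). The intervals of the 2 classes did not overlap, and their ratio was 2.17 (1.61 to 2.98) and 2.15 (1.54 to 2.93). Csf1 was present in 74.1% and 58.3% of Lepr+ stromal-like and 56.3% and 50.9% of periosteal fibroblast-like cells, against 3.32% and 3.296% of B cell-like and 0.472% and 1.59% of erythroid-like cells.

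Within the fibroblast-like class, the level of Csf1 was 163 and 131 CPM in stromal cluster 0 (led by Mfap5, Ly6a, and Clec3b) and 80.9 CPM (from 3 cells) and 82.4 CPM in stromal cluster 7 (led by Mfap4, Eln, and Col3a1). The hypertrophic chondrocyte-like level was 93.6 CPM (66.2 to 129) in library 1 but 24.98 CPM (17.0 to 35.5) in library 2, and smooth muscle-like cells had 84.2 and 46.7 CPM from 2 and 6 UMIs. Osteoblast-like cells had 11.6 and 12.1 CPM and chondrocyte-like cells 2.20 and 4.72 CPM. Blood cells carried Csf1 as well, at 17.6 and 7.85 CPM in the mixed T/NK cell-like class and 5.06 and 5.83 CPM in B cell-like cells. In neutrophil-like cells, hematopoietic cluster 11 (led by Cstdc4, Retnlg, and Asprv1) had 33.4 CPM (24.6 to 44.4) in library 1 and 316 CPM (236 to 414, 52 UMIs in 15 of 39 cells) in library 2, a difference of the libraries beyond counting error.

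In the comparison of periosteal fibroblast-like cells with the mean of the other stromal classes, 1 of 4 members was higher and none was lower, where 11.1% of genes were higher and 2.54% lower. Csf1 was higher by 2.02 (standard error 0.37, adjusted p = 0.0036, same edgeR test). Il34 stood at 1.91 (standard error 0.65, adjusted p = 0.076, edgeR), and Tnfrsf11b of -1.19 (standard error 0.73, adjusted p = 0.36, edgeR). Tnfsf11 stood at -3.16 (standard error 1.00, adjusted p = 0.054, edgeR) and passed the threshold with the library as a replicate block (adjusted p = 0.032, edgeR). It also passed without the 40 cells of stromal cluster 12, in 27.5% of which Ptprc was found, an alternative chosen after seeing the data (-4.69, adjusted p = 0.0024, edgeR). Tnfsf11 entered these tests only through the counts of Lepr+ stromal-like and hypertrophic chondrocyte-like cells, so its direction was set by that.

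Osteoblast-like cells had 1 of 4 members lower and none higher, where 6.86% of genes were higher and 2.42% lower. This was Csf1, by -1.68 (standard error 0.46, adjusted p = 0.045, same edgeR test), and the call was lost at resolution 1.2 (adjusted p = 0.055), without integration (adjusted p = 0.97), and without the 5% of cells with the most UMIs (adjusted p = 0.060). Tnfsf11 was at -0.59 (standard error 0.77, adjusted p = 0.77, edgeR) and changed sign without integration (2.12, adjusted p = 0.036, edgeR), a setting in which the library 2 cells of the Lepr+ stromal-like class were too few to enter. Tnfrsf11b stood at 0.40 (standard error 0.61, adjusted p = 0.81, edgeR), which was below 0 at resolution 1.2 and without integration, and Il34 of -2.24 (standard error 0.87, adjusted p = 0.15, edgeR).

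Chondrocyte-like cells had 2 of 4 members lower and none higher, where 11.8% of genes were higher and 8.83% lower. Csf1 was lower by -3.71 on the log2 scale (standard error 0.55, adjusted p = 0.0011, same edgeR test). Tnfsf11 was lower by -3.76 (standard error 0.96, adjusted p = 0.014, same edgeR test), with 0 and 3 UMIs, and did not pass at resolution 1.2 (adjusted p = 0.054) or without integration (adjusted p = 0.086). It passed the low-count filter only through Lepr+ stromal-like and hypertrophic chondrocyte-like sums. Its direction was set by that, so its call adds nothing to the count. The value of -3.76 was fitted with a sum of 0 UMIs and is no measured ratio. Tnfrsf11b stood at 1.05 (standard error 0.59, adjusted p = 0.24, edgeR), which was 3.51 in library 2 alone and -1.12 in library 1 alone. The mean of the other classes in library 2 included a Lepr+ stromal-like sum of 0 Tnfrsf11b UMIs, so the 3.51 is no measured ratio. Il34 had -2.67 (standard error 0.97, adjusted p = 0.071, edgeR).

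**Figure D4:**
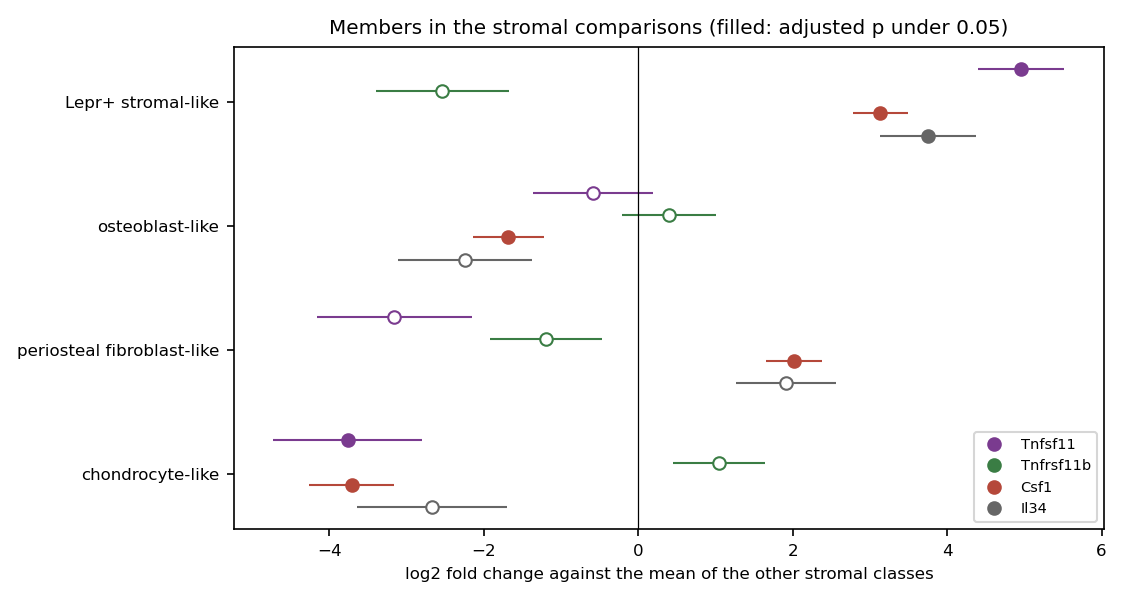
Log2 fold changes (horizontal axis) of Tnfsf11, Tnfrsf11b, Csf1, and Il34 in 4 stromal classes against the mean of the other tested stromal classes (vertical axis), with standard errors as bars. Filled circles passed the threshold of 0.05 for the adjusted p of edgeR and open circles did not, and the 3 filled circles of Lepr+ stromal-like cells lie between 3.13 and 4.96.

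Il34 (ENSMUSG00000031750, minus strand, chr8:110741829-110805924) was highest in smooth muscle-like cells, a class of 24 cells that was too small to test. They had 4 UMIs in library 1, or 168 CPM (45.9 to 431), and 33 UMIs in library 2, or 257 CPM (177 to 361), in 2 of 4 and 12 of 20 cells. Of the markers of this class, Rgs5 was at 18270 and 9717 CPM, Myh11 at 505 and 311 CPM, and Mcam at 211 and 187 CPM. Acta2 was at 84.2 and 3395 CPM, Tagln at 0 and 3418 CPM, and Cnn1 at 0 and 46.7 CPM. The name of the class thus rests on fewer markers in library 1. Lepr+ stromal-like cells had 82.8 CPM (62.0 to 108) in library 1 and 10.4 CPM (1.25 to 37.4, 2 UMIs in a single cell) in library 2. Compared with Lepr+ stromal-like cells, the level in library 1 was 2.03 times as high (0.535 to 5.52), a difference that counting error can give, and in library 2 it was 24.8 times as high (6.35 to 214). Tenocyte-like cells had 0 and 27.0 CPM, periosteal fibroblast-like cells 7.67 and 19.0 CPM, and stromal cluster 10 had 35.2 CPM. B cell-like, T/NK cell-like, neutrophil-like, and monocyte/macrophage-like cells had no Il34 UMI in either library, which in B cell-like cells allows up to 0.153 and 0.357 CPM. The genes Gm15894 and Gm15895 overlap Il34 on the other strand, and the strand setting of the counting is not given in the sources used here.

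Csf1r (ENSMUSG00000024621, plus strand, chr18:61100598-61132149, with Mir6983 on the same strand and Hmgxb3 on the other strand overlapping it) was carried by the monocyte/macrophage-like cells. They had 526 UMIs in library 1, or 162 CPM (148 to 176), and 158 UMIs in library 2, or 172 CPM (146 to 201), in 70.6% and 58.1% of cells. Neutrophil-like cells came next with 13.2 CPM (11.5 to 15.04) and 20.4 CPM (15.1 to 27.1), in 9.61% and 14.9% of cells. Csf1r was found in 0.472% and 0.794% of erythroid-like cells and in 0.113% and 0.0749% of B cell-like cells. All stromal cells together had 9 and 7 Csf1r UMIs, and the Lepr+ stromal-like class had none.

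Tnfrsf11a (ENSMUSG00000026321, plus strand, chr1:105780718-105847981) was much sparser. Monocyte/macrophage-like cells had 32 UMIs in each library, or 9.85 CPM (6.74 to 13.9) and 34.9 CPM (23.8 to 49.2), in 22 of 245 and 10 of 74 cells. They held 76.2% of the 42 Tnfrsf11a UMIs of library 1. No erythroid-like cell had a UMI, B cell-like cells had 0 and 1, and neutrophil-like cells had 3 and 1. Stromal cells had 2 UMIs in each library. Of the monocyte/macrophage-like cells with Tnfrsf11a, 18 of 22 and 8 of 10 also had Csf1r.

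The receptors differed among the subclusters of the monocyte/macrophage-like cells. Csf1r was highest in subcluster 4 (led by Apoc2, Ccl4, and Cd83), with 710 CPM (579 to 862) and 565 CPM (378 to 811), and in subcluster 3 (led by C1qa, C1qb, and C1qc, complement genes of macrophages), with 286 CPM (209 to 383) and 928 CPM (601 to 1370). Csf1r was itself among the 10 leading genes of subcluster 4, although it was not used for clustering. Subcluster 0 (led by Wfdc17, Ccr2, and Ctss) had 196 and 176 CPM, subcluster 2 (led by Ccl9, S100a4, and Ms4a6c) 130 and 143 CPM, and subcluster 1 (led by Ms4a6c, Ccl4, and Itgb7) 105 and 80.2 CPM. Subcluster 5, which is dendritic cell-like (led by Siglech, Cd7, and Ccr9), had 2 and 0 Csf1r UMIs. Tnfrsf11a was at 17.4 CPM (9.24 to 29.7) and 72.6 CPM (48.3 to 105) in subcluster 2, at 25.4 and 74.2 CPM in subcluster 3 from 4 and 2 UMIs, and at or below 9.33 CPM in the others. Part of the subcluster 2 level came from barcodes with genes of mature osteoclasts, which are described below.

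**Figure D5:**
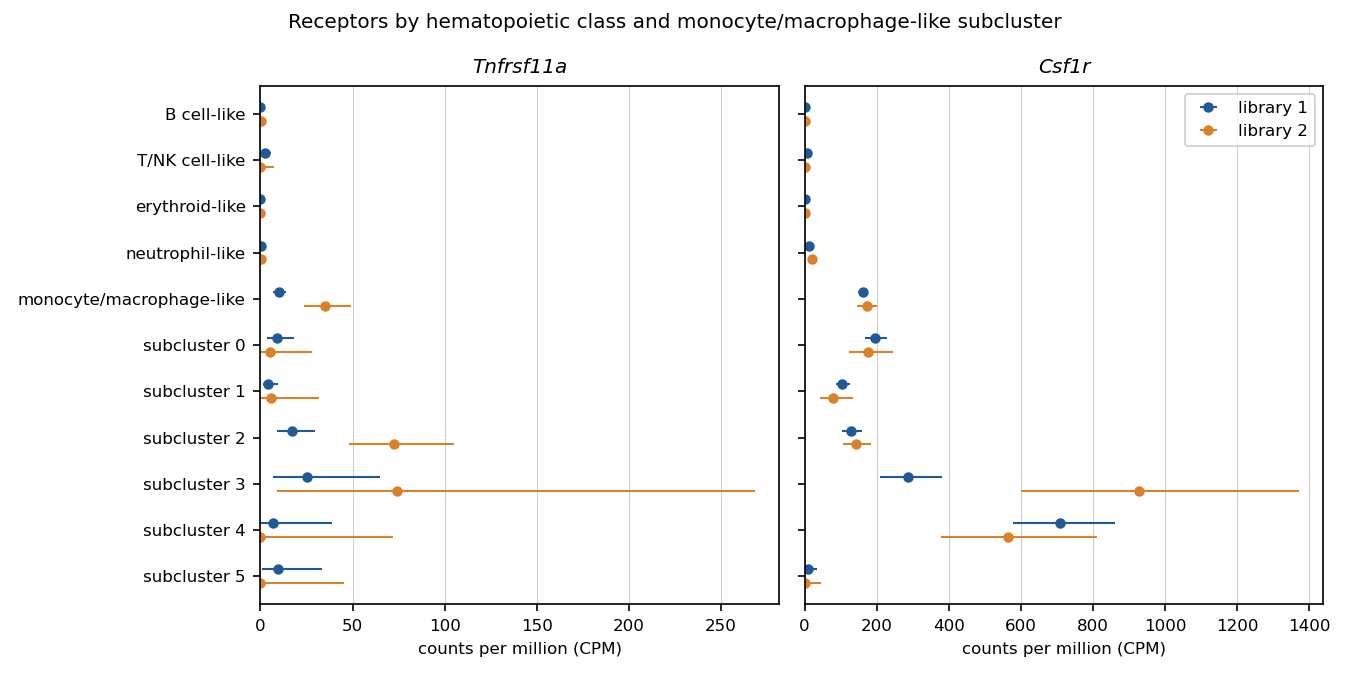
Levels of Tnfrsf11a (RANK) and Csf1r in CPM (horizontal axes, linear) in 5 hematopoietic classes and in the 6 subclusters of the monocyte/macrophage-like class (vertical axis), with 95% Poisson intervals as bars, for library 1 (blue) and library 2 (orange). Csf1r was at 162 and 172 CPM in monocyte/macrophage-like cells and at or below 20.4 CPM in the other classes, and Tnfrsf11a was at 17.4 and 72.6 CPM in subcluster 2. Without barcodes that carried genes of mature osteoclasts, Tnfrsf11a in subcluster 2 was at 10.1 and 56.0 CPM.

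A few barcodes carried genes of mature osteoclasts. In 6 barcodes, 3 from each library, at least 4 of Acp5 (tartrate-resistant acid phosphatase), Ctsk (cathepsin K), Atp6v0d2, Ocstamp, Dcstamp (fusion genes), and Calcr (the calcitonin receptor) were found, with Calcr at 0 in all 6. They held 0, 6, 4, 3, 7, and 3 Tnfrsf11a UMIs. One of them lay among the T/NK cell-like cells and held 4 of the 5 Tnfrsf11a UMIs of that class. Without them, Tnfrsf11a in monocyte/macrophage-like cells was at 8.15 CPM (5.32 to 11.9) and 23.7 CPM (14.3 to 37.1), and Csf1r at 157 and 157 CPM. The 6 barcodes do not form a class, and whether each holds 1 cell was not tested.

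Both receptors were higher in monocyte/macrophage-like cells than in the mean of the other hematopoietic classes, 2 of 3 members tested, where 16.6% of 11062 genes were higher and 6.15% lower. Tnfrsf11a passed the low-count filter only through the monocyte/macrophage-like sums, with 32 UMIs in each. Its direction was set by that, so its call adds nothing to the count. Csf1r was higher by 6.56 on the log2 scale (standard error 0.35, adjusted p = 1.6e-06, same edgeR test), and the value was 8.05 without library 1. Tnfrsf11a was higher by 7.08 (standard error 0.75, adjusted p = 3.8e-05, same edgeR test), a value fitted to nearly no counts in the other classes and therefore no measured ratio. Without the osteoclast-marker barcodes, an alternative chosen after seeing the data, Csf1r was higher by 6.63 (adjusted p = 6.2e-07, edgeR) and Tnfrsf11a by 7.11 (adjusted p = 4.0e-05, edgeR). Csf1 stood at -0.49 (standard error 0.73, adjusted p = 0.68, edgeR), with a value of 0.020 in library 1 alone.

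The ligands, OPG, and Csf1r differed between stromal and hematopoietic cells. Of the 6 members, 4 were higher in stromal classes and 1 was lower, in a comparison that called 31.0% of 13590 genes higher and 31.1% lower. The highest levels of Tnfsf11, Tnfrsf11b, and Il34 in a named hematopoietic class were 2.52, 0.357, and 1.09 CPM. These genes passed the low-count filter only through stromal sums. Their direction was set by that, so their calls add nothing to the count. Tnfsf11 had 127 and 79 UMIs in stromal and 22 and 19 in hematopoietic cells. The ratio of levels was 83.0 (52.5 to 137) and 4.70 (2.82 to 8.22). In the test, Tnfsf11 was higher in stromal classes by 4.00 on the log2 scale (standard error 0.66, adjusted p = 2.7e-05, same edgeR test). Tnfrsf11b had 185 and 873 stromal UMIs against 2 and 3, a ratio of 1330 (363 to 11070) and 329 (112 to 1599). Its tested log2 fold change was 8.87 (standard error 0.77, adjusted p = 1.6e-07, same edgeR test). For Il34, with 67 and 152 stromal UMIs against 5 and 3, the ratio was 193 (78.6 to 613) and 57.3 (19.2 to 281). The tested log2 fold change of Il34 was 6.44 (standard error 0.95, adjusted p = 2.7e-05, same edgeR test). The tested values of Tnfrsf11b and Il34 were fitted to nearly no hematopoietic counts and are no measured ratios.

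Csf1 was higher in stromal classes by 2.82 on the log2 scale (standard error 0.33, adjusted p = 1.0e-06, same edgeR test). Its ratios over all cells of each side were 19.9 (16.8 to 23.6) and 5.28 (4.29 to 6.54). Csf1r was lower in stromal classes by -3.13 (standard error 0.75, adjusted p = 0.0012, same edgeR test), with 776 and 208 UMIs in hematopoietic cells. Tnfrsf11a had 2 UMIs in stromal cells of each library and 40 and 34 in hematopoietic cells. Its stromal level was 0.719 times (0.0842 to 2.77) the hematopoietic level in library 1, a difference that counting error can give, and 0.0665 times (0.00774 to 0.260) in library 2, and the fit gave it no usable standard error.

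Other genes of the pathways were taken from 8 lists, 75 genes in all. Among secreted regulators of osteoclasts in Lepr+ stromal-like cells, 2 of 6 tested were higher and none lower. Cxcl12, a chemokine that holds hematopoietic cells in the marrow, was higher by 8.97 (adjusted p = 2.1e-05, same edgeR test), with 13970 and 2360 CPM, and Sema3a, which encodes a semaphorin that restrains osteoclasts, by 3.57 (adjusted p = 0.0074, edgeR). Of 7 receptors known to act upstream of Tnfsf11, Lifr and Il6st, which form the receptor for leukemia inhibitory factor, were higher by 2.69 and 1.11 (adjusted p = 0.00057 and 0.022, edgeR). The osteoclast effectors Mmp9 and Tcirg1 were higher (2 of 9 tested), and among 14 genes of RANK signalling, Gab2 was higher and Nfatc1 and Fos were lower, where 8.69% of all genes were higher and 2.81% lower. Mmp9 was at 1367 and 8421 CPM in these cells and at 516 and 332 CPM in neutrophil-like cells. Ptprz1, an alternative receptor of IL-34, was higher by 4.41 (adjusted p = 0.014, edgeR).

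In periosteal fibroblast-like cells, 3 of 6 secreted regulators were higher and none lower (11.1% and 2.54% of all genes), namely Ccl2 (a monocyte chemoattractant) by 6.19, Cxcl12 by 5.24, and Sema3a by 4.39 (adjusted p = 0.00025, 0.00031, and 0.00074, edgeR). Il11ra1, the receptor of interleukin 11, was higher by 4.02 (adjusted p = 3.6e-05, edgeR), and Pth1r, the receptor of parathyroid hormone, was lower by -3.68 (adjusted p = 0.00035, edgeR). Pth1r was higher in chondrocyte-like cells by 3.52 (adjusted p = 2.6e-05, edgeR) and in osteoblast-like cells by 1.40 (adjusted p = 0.031, edgeR). Chondrocyte-like cells also had 2 of 6 secreted regulators lower (Sema3a and Cxcl12) and 1 higher (Il11), against 8.83% and 11.8% of all genes. In the osteoblast-like class, 6.86% of all genes were higher and 2.42% lower. None of 14 RANK signalling genes and none of 6 secreted regulators passed the test there, which with such shares and short lists is no result about the lists. Ptprz1, as in Lepr+ stromal-like cells, was higher in osteoblast-like cells, by 5.50 (adjusted p = 0.0026, edgeR). The median log2 fold change of all genes lay between -0.05 and 0.02 in these comparisons.

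Monocyte/macrophage-like cells had higher levels in several lists that act on the receptor side, in a comparison that called 16.6% of all genes higher and 6.15% lower. All 6 genes tested of CSF1R signalling and alternative IL-34 receptors were higher (median 1.19, against -0.05 over all genes), among them Spi1, which encodes the myeloid transcription factor PU.1, by 1.98 (adjusted p = 0.00027, edgeR). Of 7 co-stimulatory immunoreceptor genes 5 were higher, with Trem2 at 9.13 (adjusted p = 3.5e-06, edgeR) and Tyrobp, which encodes its adaptor DAP12, at 4.08 (adjusted p = 0.00018, edgeR). Of 13 RANK signalling genes 5 were higher, among them Fos by 3.55 and Map3k14 by 2.66 (adjusted p = 0.0012 and 5.9e-05, edgeR).

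Of 12 osteoclast effectors, 10 were higher in this class and 1 was lower, with the osteoclast-marker barcodes included. Ctsk, Dcstamp, and Atp6v0d2 were among the genes called higher. No count of this list without these barcodes is given, so the 10 calls do not describe the rest of the class. The osteoclast-marker barcodes held most UMIs of Ctsk, Dcstamp, Acp5, and Atp6v0d2 in the class. Ctsk had 563 UMIs in the monocyte/macrophage-like cells of library 1, or 173 CPM, and 1570 in library 2, or 1710 CPM, in 9 and 5 cells. Without the osteoclast-marker barcodes, Ctsk was at 2.19 and 35.0 CPM, Dcstamp at 0.313 and 1.25 CPM, and Acp5 at 34.2 and 291 CPM. Atp6v0d2 was at 1.57 and 26.2 CPM without them and at 26.5 and 125 CPM with them. These genes served to pick the barcodes, so that a drop without them was built in. The values do not speak for the other effectors.

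Against blood cells, 7 of 8 receptors upstream of Tnfsf11 were higher in stromal classes and 1 was lower, where 31.0% of all genes were higher and 31.1% lower, with Pth1r and Osmr (the oncostatin M receptor) both higher by 8.07 (adjusted p = 2.0e-14 and 9.0e-09, edgeR). Of 7 co-stimulatory genes 6 were lower, and none was higher, with Syk, a kinase of immune receptors, at -5.78 (adjusted p = 4.1e-09, edgeR). The median log2 fold change of all genes was 0.03 in this comparison.

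For each ligand and OPG, the genes with the most similar pattern were found by the correlation of log2(CPM + 1) over the 12 sums of 6 stromal classes in 2 libraries. Skeletal muscle-like cells, with 0 UMIs of all 4 genes in both libraries, were among these classes. The sums of one library share its depth and its free RNA, and the values are descriptions without a test. For Tnfsf11 these were 4931406P16Rik, Plxna2, Adgrf5, Slc12a7, and Pcsk7 (Pearson r 0.957 to 0.972). For Csf1 they were Chst2, Sipa1, Dip2a, Snx33, and Runx1t1 (0.976 to 0.988), and for Il34 Fst, Kctd12, Runx1t1, Tnfsf13, and Agmo (0.935 to 0.959). For Tnfrsf11b they were Prpf38a, Klf16, Gmeb2, Csrnp1, and Zfp719 (0.936 to 0.970). Runx1t1 was the only gene on 2 of the 4 lists.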

How the data were processed

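The 2 libraries were 10x Chromium 3′ scRNA-Seq data. The authors deposited UMI counts per gene and barcode, made with Cell Ranger 6.1.2 and mm10 according to the submitters' processing notes, whereas the published methods name a human build only. Barcodes with at least 500 genes, at least 500 UMIs, and at most 10% mitochondrial UMIs were kept (6276 of 9932 in library 1 and 2893 of 3659 in library 2). Doublets were not removed. Cells were integrated and clustered in Seurat 5.3.0 (3000 variable genes, 15 components, resolution 0.8, and 0.4 and 1.2 as alternatives) with the members and pathway genes left out of the features. Counts were summed per class and library, for classes with at least 10 cells in both libraries, and each class was compared with the mean of the others (skeletal muscle-like cells were fitted but left out of the means) in edgeR 4.0.16 by the quasi-likelihood test with TMM scaling, filterByExpr, and Benjamini-Hochberg adjustment over all genes. DESeq2 1.42.0 was an alternative. R 4.3.3 was used. The edgeR fit of the stromal classes was tested on simulated data for the Lepr+ stromal-like comparison, and the other fits were not.

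CPM intervals are exact Poisson and shares exact binomial (Clopper-Pearson), both at 95%, and cover counting error only. The limit of a count of 0 was 3 counts. Shares at 1000 UMIs are expected values for cells of at least that depth. Members and lists were chosen with earlier results of these data known. Named pathway genes were the 3 with the largest absolute log2 fold change among the called genes of each list. The osteoclast-marker, Adipoq, and EGFP divisions were chosen after values were seen. A comparison for hypertrophic chondrocyte-like cells was fitted once after their levels were seen and left out for that reason. Sums with the same number come from the same library, so the numbers pair them, and deviations correlated with r from 0.074 to 0.344 over 15 pairs of stromal classes and from 0.193 to 0.451 over 10 pairs of hematopoietic classes. Of the features, 32158 had an identifier in GENCODE M21, and promoters of 3 of the 6 members were found in the RefSeq table. One gene of the pathway lists is not reported here.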

Additional observations from a re-analysis of the deposited data

Results flagged for a closer look

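Reporter transcripts were present in libraries whose labels name no transgene. The kept cells of library 2 held 6837 UMIs of EGFP in 170 cells and those of library 1 held 0. The tdTomato sequence had 6109 UMIs over both libraries, 1482 in library 1 and 4627 in library 2. Both lie outside the comparisons above and were noted because they exceed the limit that a count of 0 allows. What they mean for the labels was not tested.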

How the results depend on the processing

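Of 453 alternative values, 389 were counted as unchanged, 6 lost a call, 16 gained one, 35 moved, and 7 changed sign. The 389 were 248 log2 fold changes, 79 percents, and 62 counts of genes past the threshold. Only for log2 fold changes with a test does unchanged mean the same direction and side of the threshold. Percents and gene counts have neither, and fits without a library have no test. Genes past the threshold numbered 1540 without the low-count filter in osteoblast-like cells (935 with it) and 4132 in monocyte/macrophage-like cells when library was fitted as a replicate block (2518 without it). Beyond that count, the block called Tnfsf11 in periosteal fibroblast-like cells (-3.17, adjusted p = 0.032, edgeR) and changed no other call of a member.

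Leaving out 1 library leaves each class with a single sum and gives a value with no test. Some of these sums were 0, such as Tnfrsf11b in Lepr+ stromal-like cells of library 2 and Tnfsf11 and Il34 in chondrocyte-like cells of library 1. Values fitted with such a sum, on either side of a comparison, are no measured ratios. In Lepr+ stromal-like cells, Tnfrsf11b then ranged from -9.43 to -1.48 and Il34 from 1.61 to 5.14. In osteoblast-like cells, Tnfrsf11b ranged from 0.41 to 2.20 and Il34 from -2.16 to -1.20. In periosteal fibroblast-like cells, Tnfsf11 ranged from -4.65 to -0.80, Tnfrsf11b from -0.25 to -0.23, and Il34 from 1.07 to 3.08. In chondrocyte-like cells, Tnfsf11 ranged from -6.95 to -2.83, Tnfrsf11b from -1.12 to 3.51, Csf1 from -4.72 to -3.07, and Il34 from -5.78 to -1.54. In monocyte/macrophage-like cells, Tnfrsf11a ranged from 6.63 to 8.21, Csf1 from -1.04 to 0.020, and Csf1r from 6.46 to 8.05. Between stromal and hematopoietic classes, Tnfsf11 ranged from 3.62 to 5.52, Tnfrsf11b from 7.26 to 9.39, Csf1 from 2.38 to 3.13, and Il34 from 4.94 to 6.08.

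In Lepr+ stromal-like cells, Tnfrsf11b was at -2.48 in DESeq2 and -2.54 without the filter. In osteoblast-like cells without integration, Tnfsf11 was at 2.12 (0.61 with classes of at least 5 cells), Tnfrsf11b at -0.64 (-0.032), and Csf1 at -0.065 (-0.74). At resolution 1.2, Tnfrsf11b was at -0.11 and Csf1 at -1.85, and Csf1 was at -1.67 without the 5% of cells with the most UMIs. Il34 was at -4.29 without the cluster with most Mki67 and at -4.49 at resolution 1.2 with classes of at least 5 cells.

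In periosteal fibroblast-like cells, Tnfsf11 was at -3.22 in DESeq2 and without the filter, -4.55 at resolution 0.4, -3.71 without integration, -4.69 without stromal cluster 12, -4.88 without integration with classes of at least 5 cells, and -3.26 at resolution 1.2 with such classes. Il34 was at 1.97 without the filter, 2.87 at resolution 1.2, and 2.42 without the cluster with most Mki67. In chondrocyte-like cells, Tnfsf11 was at -3.07 at resolution 1.2 and -2.58 without integration, and Il34 at -2.96 in DESeq2.

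The Tnfsf11 share was 84.4% at resolution 0.4 in Lepr+ stromal-like cells of library 2. In osteoblast-like cells it was 4.84% at resolution 1.2 and 29.4% without integration in library 1, and 18.3% without integration in library 2. In periosteal fibroblast-like cells of library 1 it was 0% at resolution 0.4 and 0% without integration. Without the 5% of cells with the most UMIs, neutrophil-like cells had Tnfrsf11a in 0% of cells and Csf1r in 9.24% in library 2.

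The share of higher calls was 57.2% in chondrocyte-like cells (45.9% in the DESeq2 Wald test) and 73.9% in osteoblast-like cells (61.7% in that test). The median of all genes moved from 0.02 to 0.14 in Lepr+ stromal-like cells, from -0.05 to -0.17 in chondrocyte-like cells, and from 0.03 to 0.18 between stromal and hematopoietic classes with the size factors of DESeq2 in edgeR, and to 0.16, -0.18, and 0.22 in the DESeq2 Wald test. The causes of these changes were not tested. With 2 libraries and few UMIs of Tnfrsf11a, levels under 3 counts could not be told from 0.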
